A study of Mus musculus with 384 samples.

Results

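Ly6d is 1 of the 96 TaqMan assays read in single mouse common lymphoid progenitors (CLP), and it was followed here through all 384 wells. Its row was taken by name from the deposited table of Ct values, the cycle at which a product is first seen, over the single-cell wells, the wells of 10 or 20 cells and the wells without reverse transcriptase (no-RT). The cells came from bone marrow of C57/Bl6 mice labelled wt, and all were sorted as Lin- B220- Flt3+ Il7r+ Kitlow Sca1low, so that the series holds 1 genotype and no treated group. The 4 plates, P0 to P3, were laid out alike, with 90 wells of single cells, 4 no-RT wells, 1 10-cell well and 1 20-cell well on each. The plate was taken as the replicate, and the labels do not say whether plates came from separate mice, so a p-value measures only the spread between plates.

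Ly6d is a small cell surface protein of the Ly6 family, held in the membrane by a GPI anchor. In mouse marrow its surface expression divides the CLP compartment: cells without it keep the options of the other lymphoid lineages, and cells with it are largely specified to the B lineage. The transcription factors Ebf1 and Pax5 act in that lineage in succession, Ebf1 in specification and Pax5 in commitment, and loss of Ebf1 blocks B cell development at an early progenitor. The present gate did not include Ly6d.

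Detection meant a Ct below 28. Levels are given as 28 minus Ct, in cycles, where 1 cycle is about a doubling of product and a higher level means more template. Of the 90 single-cell wells of each plate, 86 to 87 passed quality control, with products for 22 to 54 assays per cell and a median of 43. Of the genes of the gate only Kit, the stem cell factor receptor, had an assay with a matching name, and its product was found in 97.4% ± 1.1 of cells (SD, n = 4 plates). Some wells stood apart before Ly6d was considered. In 4 passing cells, 3 on P0 and 1 on P1, the mean level of the reference genes Hprt, Atp5a1 and Tfrc was 2.31 to 9.23, against at least 11.5 in the other passing cells, and 2 of the 4 had a Ly6d product. The 10-cell well of P0 had a reference level of 3.58 with 29 assays detected, against 17.0 to 19.0 and 68 to 71 assays in the other 10-cell wells. Results that rest on these wells are given with and without them.

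The Ly6d signal was either clear or absent. In all 384 wells the Ct was either below 28 or at 40, the value taken as no product, and 0 wells lay between. Moving the threshold to any Ct below 40 therefore left the Ly6d calls as they were. In no-RT wells 0 of 16 had a Ly6d product, which allows a share of up to 18.8% (3 wells of 16; counting error only).

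A Ly6d product was found in 57 of 86 cells on P0 (66.3%, exact 95% binomial interval 55.3 to 76.1). It was found in 66 of 87 cells on P1 (75.9%, 65.5 to 84.4). P2 had 58 of 87 cells with the product (66.7%, 55.7 to 76.4) and P3 had 63 of 87 (72.4%, 61.8 to 81.5). The intervals of all 4 plates overlap. With 4 no-RT wells on a plate, the limit that a count of 0 allows is 75% for a single plate, so the comparison with no-RT wells rests on the 4 plates together. The share in cells exceeded that in no-RT wells by 70.3 percentage points (exact two-sided permutation test, 4 plates against 4, p = 0.0286, the smallest this design allows; 0.125 when the plates are paired by an exact sign-flip test, again the smallest). By share Ly6d ranked 34th of the 96 assays from the highest, between Hhex, a homeobox factor, at 72.6% ± 8.69 and Ccr7, a chemokine receptor, at 69.8% ± 4.72. The SDs of these neighbours exceed the gaps, so the order among the 3 is not fixed by these plates.

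**Figure D1:**
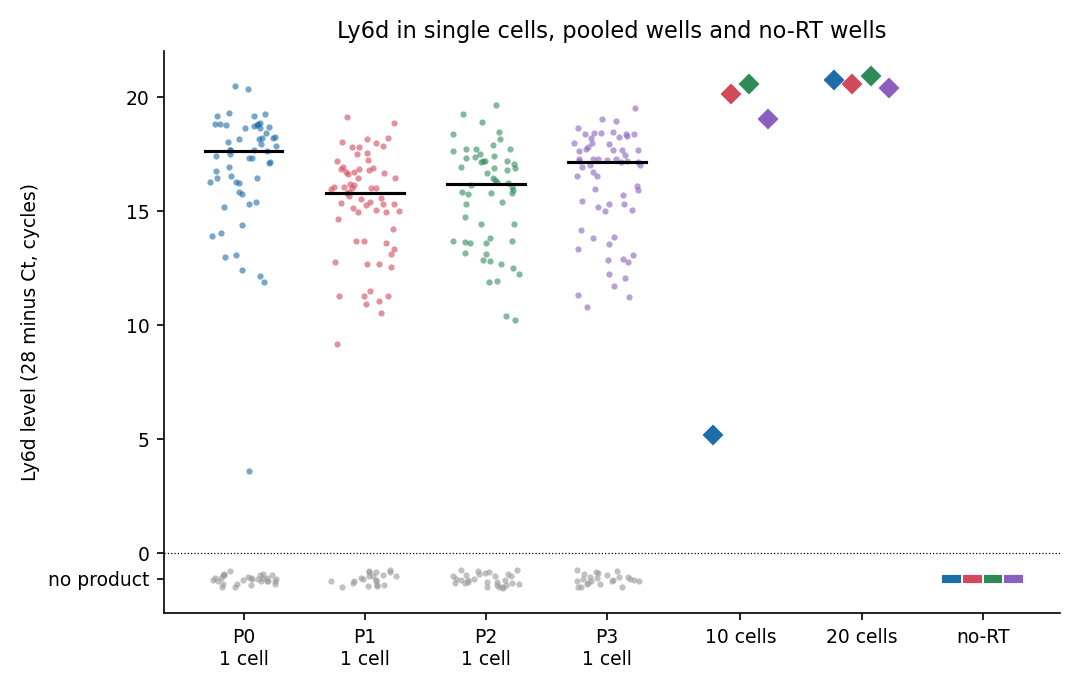
Ly6d level (28 minus Ct, in cycles, y axis) in each single cell of 4 plates, in the wells of 10 and 20 cells and in the no-RT wells. Coloured dots are cells with a product, black lines plate medians, grey dots cells without a product (placed at "no product" with jitter), diamonds the pooled wells and squares the no-RT wells, both in plate colours. The medians lie between 15.8 and 17.6, the lower tails are longer than the upper ones, and the 10-cell well of P0 stands apart at 5.17.

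Among positive cells Ly6d varied more than most genes of the panel. The Ct ran from 7.52 to 24.4 with a median of 10.4 on P0 and from 8.87 to 18.8 with a median of 12.2 on P1. On P2 it ran from 8.34 to 17.8 with a median of 11.8, and on P3 from 8.47 to 17.2 with a median of 10.9. The plates overlapped over nearly their whole range, and the medians differed by less than the SD within any plate. The SD of Ct was 2.70, 2.25, 2.25 and 2.27 cycles on P0 to P3, with a mean of 2.37. That of P0 rests on 1 cell, a well of low reference level, with a Ly6d Ct of 24.4, and was 2.04 without it. The interquartile range was 2.96 ± 0.49 cycles (SD, n = 4). At a doubling per cycle the quartiles of positive cells were 5.29-fold to 12.1-fold apart on the 4 plates. Of 49 assays found in at least 20% of cells with a product in fewer than 4 no-RT wells, Ly6d had one of the 4 largest SDs of level, with Hhex at 2.74, Gfi1, a zinc finger repressor, at 2.42 and Ebf1 at 2.32; the median of the 49 was 1.44 and the smallest 1.00. Ly6d came before Ebf1 over all passing cells and after it, at 2.17, without the 4 cells of low reference level, where Ebf1 was at 2.21 and the median at 1.23. The gap between Ly6d and Ebf1 is smaller than the SD of 0.22 between plates in either order. The spread of the reference level over passing cells was 0.97 to 1.89 cycles per plate.

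The distribution was not symmetric. Of all positive cells, 97 (39.8%) lay within 1 cycle of their plate's median. Late cells outnumbered early ones, with 63 (25.8%) more than 2 cycles later than the median and 16 (6.56%) more than 2 cycles earlier. Beyond 3 cycles there were 46 late cells and 4 early ones. In steps of 1 cycle the levels peaked at 17 to 18 with 55 cells, fell to 12 cells at 14 to 15 and held 21 cells at 13 to 14. The counts of the step at 13 to 14 were 3, 5, 8 and 5 on P0 to P3, against 2, 5, 3 and 2 in the step above it, so the small rise appeared on 3 of the 4 plates, P1 having equal counts, and was not tested.

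Apart from the 10-cell well of P0, the pooled wells reached earlier cycles than nearly all single cells. The 20-cell wells had Ly6d Cts of 7.23, 7.44, 7.09 and 7.62 on P0 to P3, earlier on each plate than its earliest single cell. The 10-cell wells had 22.8, 7.87, 7.42 and 8.96, of which only that of P0 came later than the median cell of its plate. Levels were 20.7 ± 0.24 in 20-cell wells and 16.2 ± 7.4 in 10-cell wells (SD, n = 4), a difference of 4.43 cycles with an interval of -0.20 to 15.7 (exact two-sided permutation test, p = 0.0857). Without the 10-cell well of P0 the difference was 0.74 cycles (-0.20 to 1.87, exact p = 0.0857, 4 wells against 3). Set against the sum expected from single cells, 10 times the plate's mean amount per passing cell on the linear scale, with 0 for cells without a product, the 10-cell wells were 3.76 cycles lower (exact p = 0.429). Without the well of P0 they differed from it by -0.08 cycles, with an interval of -1.85 to 1.27 (exact p = 0.857). With the level of each pooled well taken relative to its reference genes, P0 no longer stood apart: the 10-cell wells were at 1.59, 3.15, 1.57 and 1.10 and the 20-cell wells at 1.66, 1.22, 2.01 and 1.76 cycles above their reference level.

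Cells with and without Ly6d did not differ detectably in yield. Positive cells had products for 41.9 ± 0.30 other assays and negative cells for 41.2 ± 1.2 (SD over 4 plates), a difference of 0.69 with an interval of -1.07 to 2.52 (exact two-sided permutation test, p = 0.371). The reference level was 14.4 ± 0.19 in positive and 14.4 ± 0.33 in negative cells (exact p = 0.971; interval of the difference -0.46 to 0.70). The reference genes did not move together, however. Tfrc, the transferrin receptor, was 0.47 cycles higher in Ly6d-positive cells (limma adjusted p = 0.210) and Hprt 0.35 cycles lower (limma adjusted p = 0.479).

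Presence of Ly6d went with presence of Ebf1, Pax5 and some other genes, not all of them of the B lineage. For each plate the log2 odds ratio of finding 2 products in the same cell was taken for all 1176 pairs of 49 assays, and fitted with limma over the 4 plates with Benjamini-Hochberg adjustment over all pairs. Of all pairs 2.98% were called positive and 1.62% negative at an adjusted p under 0.05. Of the 48 pairs with Ly6d, 7 were called positive, with Pax5, Ebf1, Bst1, Gfra2, Klf4, Klrb1c and Ly86, and 2 negative, with Csf3r and Csf1r. A further 3 positive and 6 negative pairs had an unadjusted p under 0.05 alone. The median log2 odds ratio of the Ly6d pairs was near 0, against 0.11 over all pairs.

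**Figure D2:**
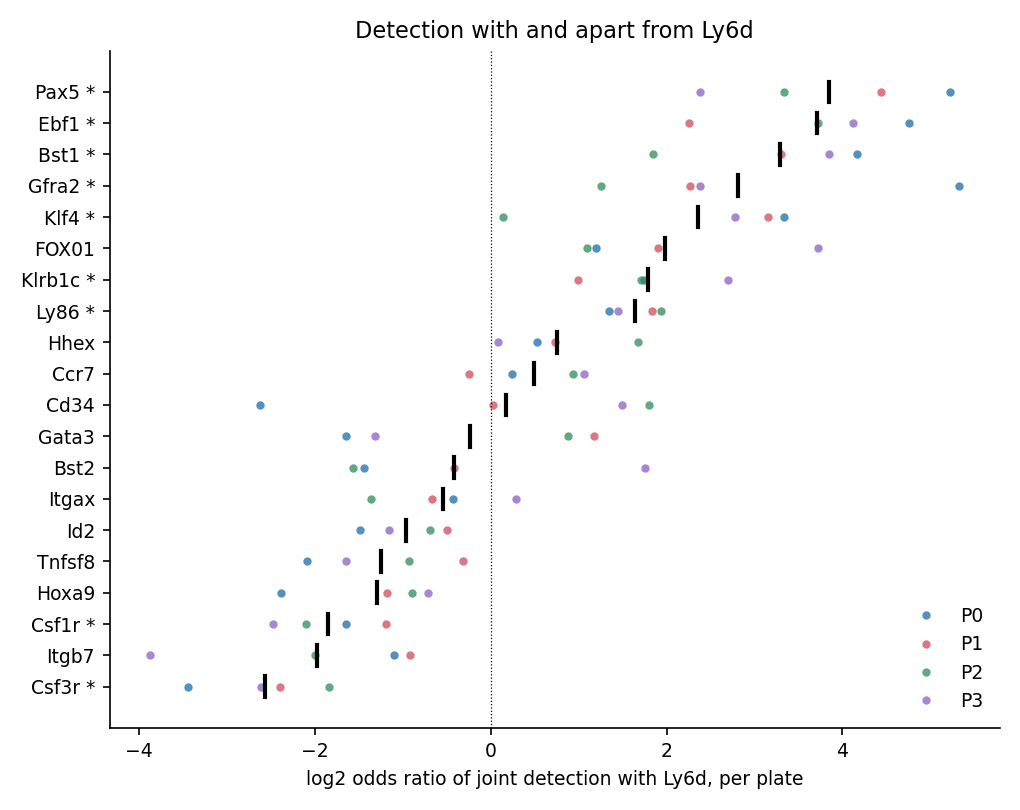
Log2 odds ratio of joint detection with Ly6d (x axis; above 0, found together more often than apart) for the 9 called pairs, marked with an asterisk, and 11 other assays. Dots are the 4 plates and black bars their mean; all plates of Pax5, Ebf1, Bst1, Gfra2 and Ly86 lie above 0 and all of Csf3r and Csf1r below it.

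Among transcription factors, Ebf1 and Pax5 had the highest log2 odds ratios with Ly6d. Ebf1 was found in 88.7% ± 6.76 of Ly6d-positive and 39.4% ± 8.95 of Ly6d-negative cells (SD, n = 4 plates), with plate log2 odds ratios of 4.76, 2.26, 3.72 and 4.12 on P0 to P3. Pax5 was found in 35.7% ± 2.32 of positive and 2.95% ± 3.94 of negative cells, with 5.22, 4.44, 3.34 and 2.38. Read the other way, 96.8% of cells with Pax5 had Ly6d, against 61.1% of cells without it (means over plates). The assay named FOX01, whose name matched no gene symbol, was found in 88.7% ± 5.2 and 66.9% ± 11.6, and its log2 odds ratio of 1.98 (SE 0.51) narrowly missed the threshold (limma adjusted p = 0.051). Klf4, a Krüppel-like transcription factor with known roles in monocytes and stem cells, was found in 18.2% ± 8.17 and 3.63% ± 4.89, with 0.14 on P2 and 2.78 to 3.34 on the other plates.

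Surface proteins made up the other positive pairs. Bst1, a GPI-anchored ectoenzyme of early B and myeloid cells, was found in 21.8% ± 2.56 of Ly6d-positive and 1.72% ± 3.45 of negative cells: only 2 of 55 cells with Bst1 lacked Ly6d. Gfra2, a receptor of the GDNF family, was found in 33.0% ± 6.64 and 6.72% ± 5.82, with its highest log2 odds ratio, 5.33, on P0 and 1.26 to 2.38 on the others. The receptor RP105 is encoded by Cd180, which was not called (78.1% and 81.4%, -0.21, limma adjusted p = 0.873). Ly86, which was called, encodes MD-1, the partner of RP105 on B cells. It was found in 63.4% ± 3 and 35.1% ± 6.07, with a log2 odds ratio of 1.64 ± 0.29 (SD, n = 4; limma adjusted p = 0.046) and the smallest spread between plates of the 7. Klrb1c, which encodes the natural killer receptor NK1.1, was found in 17.1% ± 6.36 and 4.64% ± 3.25, with 1.78 ± 0.70 (limma adjusted p = 0.045). Its call was lost when the cells of a plate were split by their number of assays (1.22, limma adjusted p = 0.081) or by their reference level (1.34, 0.054), while the other 6 positive pairs kept theirs under both.

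Both negative pairs were receptors of myeloid growth factors. Csf3r, the G-CSF receptor, was found in 36.2% ± 8.19 of Ly6d-positive and 78.0% ± 3.79 of Ly6d-negative cells, with plate log2 odds ratios of -3.44, -2.39, -1.83 and -2.61. Csf1r, the M-CSF receptor, was found in 15.0% ± 4.22 and 39.1% ± 4.8, with -1.65, -1.19, -2.09 and -2.48. The ranges of positive and negative cells did not overlap between plates for either gene. Itgb7, an integrin chain of gut-homing lymphoid cells, was found in 4.21% and 15.2% and narrowly missed the threshold (-1.97, limma adjusted p = 0.064).

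Only the pair with Ebf1 kept its call whichever plate was left out. That with Pax5 lost it without P1 (limma adjusted p = 0.055), and those with Bst1 and Csf3r without P1 or without P3 (up to 0.058 and 0.093). Gfra2 and Klf4 lost it without P0, P1 or P3 (up to 0.132 and 0.194), and Klrb1c, Ly86 and Csf1r without any 1 plate (0.094 to 0.238, 0.097 to 0.168 and 0.074 to 0.179). No pair changed sign. For Pax5, Bst1, Gfra2, Klf4 and Klrb1c the lowest plate share in Ly6d-negative cells was 0%. Plate ratios there rest on the 0.5 added to each count. With 1 added instead, their log2 odds ratios were 3.22, 2.54, 2.40, 1.78 and 1.38, and that of Ebf1 was 3.57, above Pax5. All of these kept their call. Without the 4 cells of low reference level all 9 pairs kept their call and FOX01 joined them (limma adjusted p = 0.039). FOX01 was called under 9 of 13 alternative settings, but not with any plate left out (limma adjusted p = 0.069 to 0.269).

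By likeness of presence, measured as the mean phi coefficient within plates over 57 assays (86 to 87 cells each, the assays sharing wells and yield), Ebf1 was most like Ly6d at 0.52. Pax5 (0.34), Gfra2 (0.28), FOX01 (0.26) and Ly86 (0.26) followed. At the other end stood Csf3r (-0.38), Csf1r (-0.27), Pirb (-0.24), Itgb7 (-0.19) and Tnfsf8, which encodes CD30 ligand (-0.17). The median over the 57 assays was 0.002, so these 10 are the ends of a range centred on 0.

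The lists of lineage genes differed in how many members could be tested. Of 8 B lymphoid genes with a name-matched assay, only Ebf1, Pax5 and Bst1 lay in 5% to 95% of cells with few no-RT products. All 3 were called positive (median log2 odds ratio 3.71). The list also names Foxo1 and Tcf3, which matched no assay name. Assays named FOX01 (1.98) and TCF3E2A (-0.31, limma adjusted p = 0.795) were tested but not counted in the list, and neither was called. Of 5 myeloid genes tested, Csf3r and Csf1r were called negative and Klf4 positive, and Gfi1 and Il6ra were not called (0.04 and 0.09). Of 4 dendritic genes tested, only Csf1r, in both lists, was called, and Itgax (-0.54), Bst2 (-0.42) and Id2 (-0.96) were not. Of 3 T lymphoid genes tested, Gata3 (-0.23), Cd4 (-1.05) and Cd5 (-0.93) were not called. Thy1, also on that list, matched no assay name. The assay named CD90.2 was tested outside the list, had the opposite sign (0.29) and was not called. Of 5 genes of natural killer and innate lymphoid cells tested, Klrb1c alone was called. Cd9 and Il3ra, tested for the erythroid and megakaryocyte list, and Cd34, Hoxa9 and Fli1, tested for the stem and multipotent list, were not called; Hoxa9, a homeobox gene of early progenitors, had the lowest value of these (-1.29, limma adjusted p = 0.157).

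Some genes of the B lymphoid list were too rare for the pair test, and their cells are given as counts. Spib, an Ets factor of B and plasmacytoid dendritic cells, was found in 7 cells and Lef1, a factor of pro-B and T cells, in 6, and all of these had Ly6d (4.92 and 4.17 expected from the shares on each plate). Bcl11a, a factor needed for lymphoid development, was found in 98.3% of cells, of which 71.3% had Ly6d. Cd24a had a product in 13 of 16 no-RT wells and was not used. Outside this list, Pirb, an inhibitory receptor of myeloid and B cells, was found in 8 cells of which 0 had Ly6d (5.66 expected), which allows a share of up to 37.5%. The dendritic gene Cd8a was found in 2 cells, both with Ly6d. These counts carry no test.

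Much of the pattern was also present among cells with an Ebf1 product. Among these the Ebf1 level was 2.38 cycles higher with Ly6d, so the comparison does not hold the Ebf1 level equal. Of the cells with an Ebf1 product, 84.4% had Ly6d (mean over plates) and 40 cells did not. Within them Pax5 was found in 40.3% of Ly6d-positive and 5.90% of Ly6d-negative cells, and its mean log2 odds ratio over plates was 2.94, against 3.85 over all cells. Bst1 was found in 24.2% and in 0 of 40, which allows a share of up to 7.5%. Gfra2 was found in 36.9% and 6.25%, Ly86 in 63.7% and 36.1% and Csf3r in 31.6% and 63.1%. Each of these 5 genes, and Klrb1c (18.8% and 5.05%), kept the sign of its log2 odds ratio on all 4 plates. Klf4 (20.1% and 3.13%) was positive on 3 plates only. Uncalled genes such as Hoxa9 and Cd4 also kept 1 sign on all 4 plates. For Bst1 the ratio rests on the 0.5 added to a count of 0. The pairs were called over all cells, of which the cells with Ebf1 are a part, so like signs are no separate support. For Csf1r the separation was smaller, 13.5% and 21.6%, with a mean log2 odds ratio of -0.72 ± 1.47 (SD, n = 4) against -1.85 over all cells, and the sign was negative on 3 plates. With about 10 Ly6d-negative cells per plate these values are descriptions and were not tested.

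The level of Ly6d rose with the state of the cell. Ly6d was found in 28 of 90 cells without Ebf1 and Pax5 (29.9% ± 17 over plates, from 11.1 to 52.2%), in 77.5% ± 4.45 of cells with Ebf1 alone and in 87 of 89 cells with both (97.8% ± 2.59). The mean level of the positive cells with neither factor was 12.7, 14.7, 13.7 and 11.9 on P0 to P3, resting on 2 to 12 cells per plate. With Ebf1 alone it was 16.4, 14.7, 15.6 and 16.3, and with both 17.9, 16.5, 16.6 and 16.9. The plate values of the 3 states did not overlap, although P1 separated the first pair of states by only 0.04 cycles. Cells with Ebf1 alone were 2.52 cycles above cells with neither (0.04 to 4.39 over plates; exact two-sided permutation test, p = 0.0286, the smallest possible), about 5.75-fold. Cells with both were 1.19 cycles above cells with Ebf1 alone (0.57 to 1.76 over plates; exact p = 0.0286), about 2.27-fold. An exact sign-flip test that pairs the plates gives p = 0.125 for each, its smallest value, and without the 4 cells of low reference level the second step was 1.17 cycles with overlapping plates (exact p = 0.0857).

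**Figure D3:**
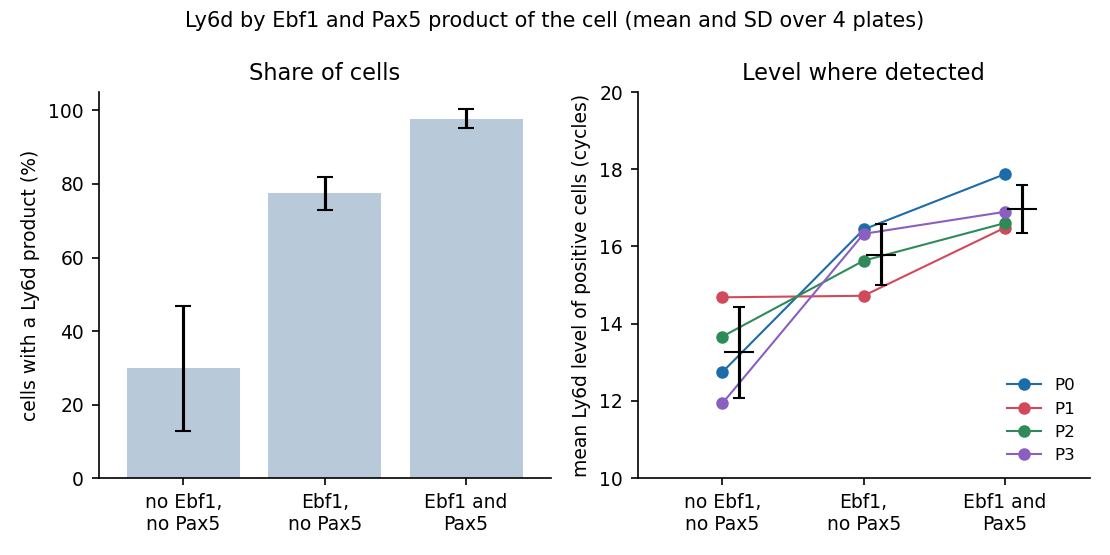
Ly6d in cells grouped by Ebf1 and Pax5 product. Left, share of cells with a Ly6d product (bars, mean; error bars, SD over 4 plates); right, mean Ly6d level of positive cells per plate (coloured lines) with mean and SD over plates (black). The share goes from 29.9% to 77.5% to 97.8%, and the mean level from 13.3 to 15.8 to 17.0 cycles; on P1 the first step is close to 0.

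Fitted across assays, the Ly6d level of positive cells was compared between those with and without a product of each of 36 other assays with at least 5 cells of each kind on every plate, as within-plate differences in limma. Of the 36, 3 were called higher (8.33%) and 0 lower (0%; 0 also at an unadjusted p under 0.05, by limma). Over all 1605 ordered pairs of assays tested the same way, 1.87% were called higher and 0.685% lower. With Gfra2 the Ly6d level was 1.62, 1.30, 1.71 and 1.68 cycles higher on P0 to P3 (mean 1.58, SE 0.34; limma adjusted p = 0.0076). With Pax5 it was 1.64, 1.77, 1.44 and 1.12 cycles higher (mean 1.49, SE 0.34; limma adjusted p = 0.0076), and with Bst1 0.56, 1.57, 1.96 and 0.93 (mean 1.25, SE 0.36; limma adjusted p = 0.0352). All 4 plates had the same sign for each of the 3 genes, which are also among those found more often in Ly6d-positive cells. The 3 calls were lost when the median of each class replaced its mean, with differences of 1.16, 0.99 and 0.74 cycles (limma adjusted p = 0.249, 0.315 and 0.422), when P1 was left out, and when the plate was not kept as a block. The call for Bst1 was also lost without P2 or P3. Over the plates left out the limma adjusted p reached 0.058 for Gfra2, 0.085 for Pax5 and 0.223 for Bst1.

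Ebf1 was not among the 36, since on 1 plate fewer than 5 Ly6d-positive cells lacked it. The smallest p toward a lower Ly6d level were those of Csf3r (-0.71), of Il12rb1, a chain of the interleukin 12 receptor (-0.58), and of Id2, an inhibitor of E proteins (-0.50), with limma adjusted p of 0.256, 0.372 and 0.571. None of these passed the threshold.

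The shares of several partners differed with the level of Ly6d. All genes named here but Id2 had been called as pairs with Ly6d in these cells, so their shares are no separate support. Positive cells of each plate were split by level into 3 groups of equal size, low, middle and high, with mean levels of 13.3, 16.6 and 18.1 cycles. Ebf1 was found in 39.4% of cells without Ly6d and in 74.3, 95.3 and 96.5% of the low, middle and high group. Pax5 was found in 2.95, 13.8, 46.4 and 47.0%, Gfra2 in 6.72, 11.3, 42.4 and 45.1% and Bst1 in 1.72, 6.27, 30.1 and 28.9%. Csf3r went the other way with 78.0, 48.5, 31.7 and 28.5%, and Csf1r with 39.1, 20.4, 12.4 and 12.1%. For each of these 6 genes the step from the middle to the high group was smaller than that from the low to the middle group and than the SD over plates within either group. Klrb1c did not follow this order, with 4.64, 8.78, 16.5 and 25.8%, its larger step lying between the middle and the high group, and Klf4 was found in 3.63, 9.97, 19.2 and 25.5%. The steps were not tested. Id2 was found in 55.1, 53.4, 29.0 and 34.2%. The reference level was 14.2 ± 0.17, 14.2 ± 0.28 and 14.7 ± 0.24 in the low, middle and high group and the number of other assays 41.4, 41.9 and 42.5, so the high group had the highest mean yield; its part in the shares was not tested.

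**Figure D4:**
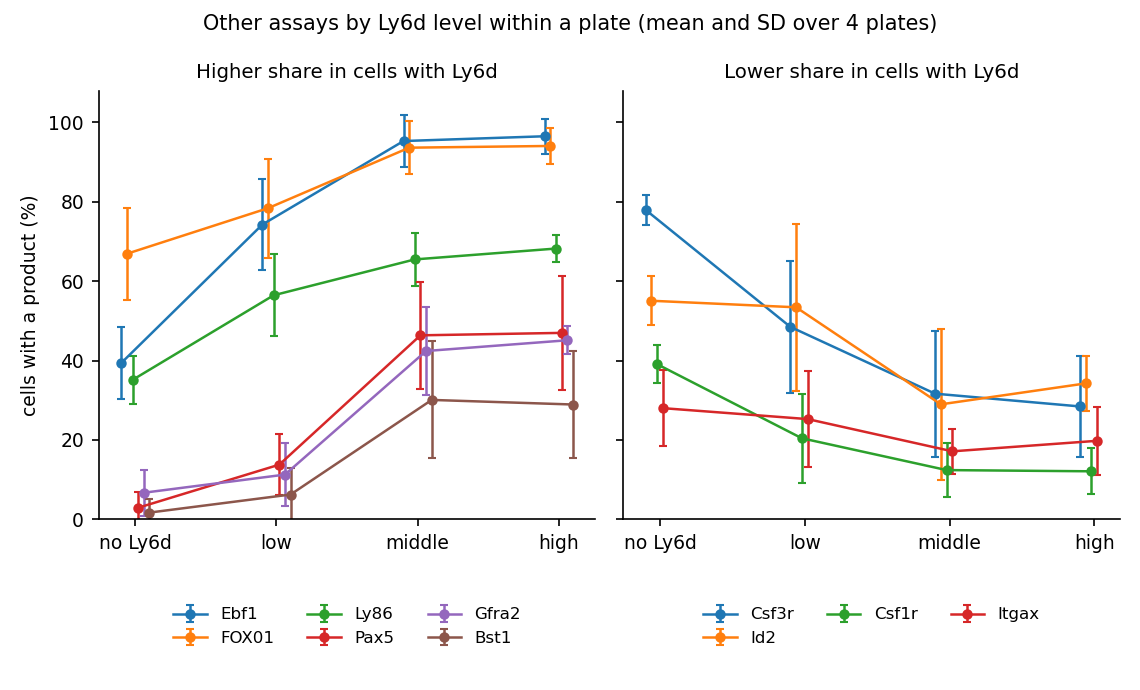
Share of cells with a product of 10 other assays (y axis, %) in cells without Ly6d and in the groups of low, middle and high Ly6d level within each plate. Points are means and bars SD over 4 plates; the left panel holds genes with a higher share in Ly6d-positive cells, the right panel genes with a lower one. Pax5, Gfra2 and Bst1 lie at 13.8% or less in the low group and at 28.9% or more in the middle and high groups.

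Presence of Ly6d also went with the level of other genes. Among cells with a product of the other gene, the mean level in Ly6d-positive and Ly6d-negative cells was compared for 42 assays, and 3 were called higher (7.14%) and 1 lower (2.38%), beside the 1.87% and 0.685% over all ordered pairs. The median difference over the 42 was 0.01 cycles. Ebf1 was at 12.4, 12.0, 12.0 and 11.0 without Ly6d and at 14.5, 14.0, 14.2 and 14.2 with it on P0 to P3. All plates rose, by 2.38 cycles on average (SE 0.26; limma adjusted p = 0.0010), about 5.21-fold. Ly86 was 0.98 cycles higher (at least 0.42 on every plate; limma adjusted p = 0.0437), a call that is lost when the adjustment runs over all ordered pairs (0.0755) or without P0, P2 or P3 (up to 0.136).

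Cd34, a sialomucin of stem and progenitor cells, was lower with Ly6d. Its level was 10.6, 9.80, 10.1 and 10.3 in Ly6d-negative and 9.46, 7.71, 8.84 and 8.74 in Ly6d-positive cells, a fall on all 4 plates and without overlap. The difference was -1.53 cycles (SE 0.22; limma adjusted p = 0.0032). Presence of Cd34 did not separate the same cells, at 94.7% and 94.0%. The next smallest p toward lower levels were those of Selplg, the ligand of P-selectin (-0.46, limma adjusted p = 0.210), and Mef2c, a transcription factor of lymphoid progenitors (-0.49, limma adjusted p = 0.309). The calls for Ebf1 and Cd34 held whichever plate was left out. Without the 4 cells of low reference level all 4 calls held, and Selplg, Tfrc and FOX01 were called as well.

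**Figure D5:**
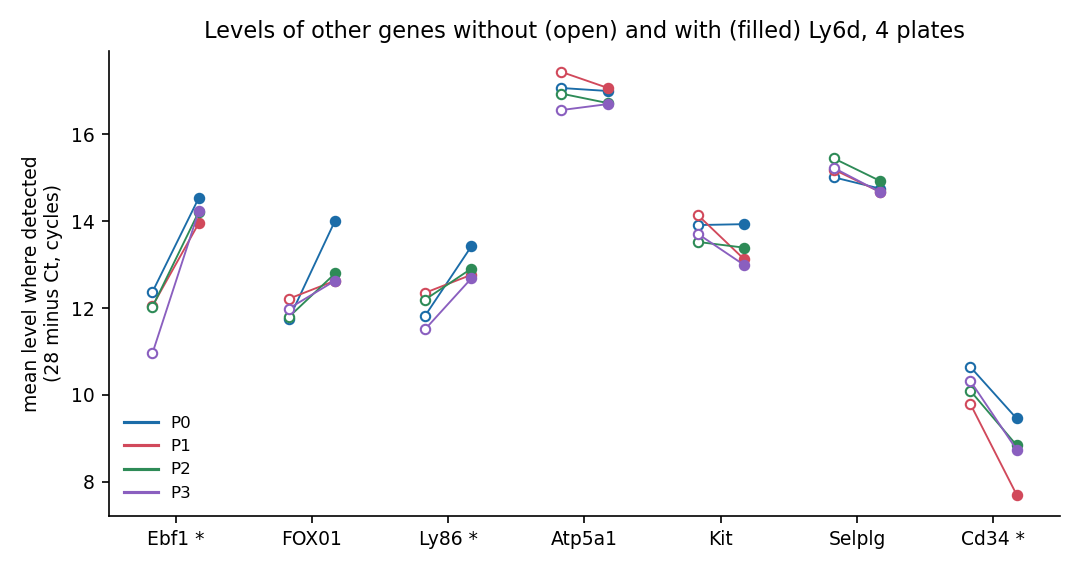
Mean level where detected (28 minus Ct, y axis) of 7 genes in cells without Ly6d (open circles) and with Ly6d (filled circles), joined within each plate. An asterisk marks a call by limma. Ebf1 and Ly86 go up and Cd34 goes down on all 4 plates. Atp5a1 and Kit go up on 1 plate each and down on the others.

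Within the cells that had both products, the level of Ly6d followed that of Ebf1 most closely. The mean within-plate Spearman rho was 0.45 for Ebf1 (0.41 to 0.53 on the plates, 49 to 58 cells each). It was 0.35 for FOX01, 0.31 for the assay named INFA_BR1 and 0.27 for Gfra2. The lowest were Cd34 (-0.23), the assay named CD90.2 (-0.20), Csf3r (-0.14), Selplg (-0.10) and Itgax (-0.07), the last 4 with both signs among the plates. Of the 47 assays 37 had a rho above 0 with a median of 0.13, and levels of 1 cell share its yield, so a low positive rho is common to the panel. With each level taken relative to the reference level of its cell, which itself adds a shared term, the median was 0.22, and Ebf1 (0.48), FOX01 (0.44), INFA_BR1 (0.42) and Cd34 (-0.25) stayed among the highest and lowest. Gfra2 fell below the median, to 0.047, CD90.2 stood at -0.07, and Csf3r (0.04), Selplg (0.02) and Itgax (0.05) turned positive. Pax5, second by presence, came 10th by level, with 0.22 over plates from -0.02 to 0.49.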

How the data were processed

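Sorted cells were lysed and frozen, reverse-transcribed and pre-amplified in the well with all 96 TaqMan assays and read on a Fluidigm array, per the labels' protocols. The deposited values are Ct as the authors gave them, without normalization. The software and its Ct threshold are not given in the sources used. Columns were tied to samples by title. A RefSeq gene table named 47 assays by symbol and 34 by synonym; the other 15 are printed as in the file.

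A single-cell well passed if over 50% of the reference genes gave a product and its number of assays reached 50% of the plate median. Log2 odds ratios had 0.5 added to each count. Tests used limma 3.58.1 in R 4.3.3 on within-plate values with Benjamini-Hochberg adjustment at 0.05, and exact permutation tests over plates; the code was tested on simulated data. Cells were never replicates. Named genes were Ly6d, every called assay, the 5 highest and lowest by phi and by rho, the smallest p in each level test where fewer than 3 were called, the B lymphoid and dendritic lists, Kit and the neighbours by share. Some results of these rules are not reported here. Members and lists were chosen with earlier results of these data known. Wells of the same plate in different groups deviated together with correlations of -0.22 to 0.30, so plate numbers were not taken to pair pooled and no-RT wells with cells.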

Additional observations from a re-analysis of the deposited data

Results flagged for a closer look

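In groups of 4 values, 1 value was compared with the other 3 by its gap over the whole range, for 29 groups; chance flags about 1 in 20 groups. The Ly6d Ct of the 10-cell well of P0, 22.8, was far from the other 3 (7.42, 7.87 and 8.96). The SD of the Ly6d Ct on P0, 2.70, was far from the others (2.25, 2.25 and 2.27), and was 2.04 without the cell of Ct 24.4. For Selplg the level in Ly6d-positive minus negative cells was -0.26 on P0, against -0.56 to -0.52 on the other plates. Among wells left out of all comparisons, 1 of 13, on P0, had a Ly6d product, at a Ct of 25.1, with products for 11 assays; 10 of the 13 had no product at all.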

How the results depend on the processing

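The share of Ly6d-positive cells stayed between 68.5 and 71.6% when each plate was left out. With 3 plates no exact test can go below 0.1, so the step to Ebf1 alone (1.90 to 3.35 cycles), the step to both factors (0.99 to 1.39) and the excess over no-RT wells (68.5 to 71.6 points) had no call there; with the plate as a replicate block these were 2.52 cycles, 1.19 cycles and 70.3 points at p = 0.125. Without the cells of low reference level, an alternative chosen after seeing the data like the fit over all ordered pairs, the step to both factors was 1.17 cycles (p = 0.0857), and the level test of other assays had 5 positive and 2 negative calls. Relative to the reference genes the median Ly6d level was 2.19 cycles, 20-cell wells were -0.19 cycles from 10-cell wells (p = 0.886) and 10-cell wells 0.047 cycles from 10 times the mean cell (p = 0.943). Leaving out plates moved 20-cell minus 10-cell wells between 0.70 and 5.79 and 10-cell wells against the expectation between -5.33 and 0.18. The difference in reference level ranged from -0.080 to 0.078 and that in other assays from 0.32 to 1.22; without quality control the latter was 4.80 (p = 0.0286). Positive calls with Ly6d numbered 1 to 5 and negative calls 0 to 1 without a plate; there were 18 positive calls without quality control and 4 negative calls with cells split by number of assays. Level calls of other assays numbered 1 to 3 without a plate. They numbered 1 with at least 10 cells per class (Ebf1 and Ly86 then being untested). With medians there were 5 positive and 2 negative calls, the latter Cd34 and Kit. Calls on the Ly6d level numbered 0 to 4 without a plate, 0 with medians and 0 with no replicate block. Beyond the fewer samples, wells or assays that some alternatives leave, the cause was not tested. The sensitivity of each assay is unknown, so an absent product is no proof of an absent transcript, and with 4 plates calls near the threshold depend on single plates.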
